A study of Callithrix jacchus with 5 samples.

Results

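PECAM1, KDR, VWF, ESAM and ENG encode proteins best known from endothelium, the cell layer that lines blood vessels, and their RNA was followed here in pluripotent and fibroblast cultures of a New World primate, the common marmoset (Callithrix jacchus). The 5 genes were taken from a short list of endothelial markers as those that had passed between fibroblasts and ES lines in an earlier analysis of the same counts, so their folds and p-values in that comparison describe the choice and are not independent evidence. Each matched 1 of 30811 Ensembl gene identifiers in the deposited count table through a table that pairs identifiers with symbols, and each passed the filter on low counts that kept 17462 genes. The 5 RNA sequencing libraries hold 1 library of fibroblasts (title E01F, P number 1), 1 library each of 3 embryonic stem (ES) cell lines (No40, DSY127 and No20, with P numbers 63, 17 and 45) and 1 of induced pluripotent stem (iPS) cells, which carries no P number. The series title says that the iPS cells were made from marmoset fibroblasts with RNA-based reprogramming, and the labels name no genotype, treatment or parent culture for any library. None of the libraries is labelled as endothelial.

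PECAM1 (CD31) is an adhesion molecule of endothelial cell contacts, platelets and leukocytes, and in mouse it is also found on ES cells and the inner cell mass. ESAM is an immunoglobulin-like adhesion molecule of endothelial tight junctions. KDR (VEGFR2) is the main signalling receptor for VEGFA, and early mesodermal precursors of endothelium and blood carry it. ENG (endoglin, CD105) is a co-receptor for ligands of the TGF-beta and BMP family, and besides endothelium it is common on mesenchymal and fibroblastic cells. VWF is a secreted glycoprotein that is stored in the Weibel-Palade bodies of endothelial cells and binds platelets at injured vessel walls.

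In the coordinates of the files, for which no genome build is named in the labels or headers, the PECAM1 model (ENSCJAG00000019367) runs from 83085160 to 83140686 on the minus strand of chromosome 5. KDR (ENSCJAG00000018352) runs from 138448852 to 138497301 on the plus strand of chromosome 3. VWF (ENSCJAG00000000613) runs from 17679941 to 17860155 on the minus strand of chromosome 9, ESAM (ENSCJAG00000008016) from 22530069 to 22539053 on the minus strand of chromosome 11, and ENG (ENSCJAG00000019875) from 171748081 to 171788744 on the minus strand of chromosome 1. The exons of the models add up to 2454 bases for PECAM1, 6061 for KDR, 8838 for VWF, 1880 for ESAM and 3133 for ENG. None of the 5 models shares an exon base with another gene model of the table.

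Total counts were 58601185 in the fibroblast library, 34111715 to 46523012 in the ES lines and 5746449 in the iPS library, so counting error was widest in the iPS library. Levels are given as CPM, read counts on the scale of a common library size after TMM scaling, a correction for library composition. For single libraries a 95% exact Poisson interval follows in brackets, and it covers counting error only. Values of the ES lines are means ± SD (n = 3), and log2 changes carry their SE after the ± sign. Unless another tool is named, adjusted p-values come from the edgeR quasi-likelihood test. Fibroblasts and iPS cells were sequenced once each, so the ES lines were the only replicates (2 residual degrees of freedom). Each test below assumed that the lone libraries vary like an ES line. The edgeR fit also drew the spread of each gene toward that of other genes, which gave 6.72 degrees of freedom for the 5 genes. Their SEs and 95% intervals are thus not the spread of 1 gene alone. KDR, for instance, had an SE of 0.48 for the fibroblast change and an SD of log2 CPM of 0.048 among the ES lines. The labels fitted the marker genes: NANOG, a core pluripotency factor, had 0.357 CPM in fibroblasts against 462 to 562 CPM in the pluripotent libraries, and COL1A2, a chain of type I collagen, had 19646 CPM in the fibroblast library against 228 to 263 CPM in the ES lines. The iPS library also held COL1A2 at 3447 CPM. In bulk RNA, fewer cells of a type and less RNA per cell cannot be told apart.

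**Figure D1:**
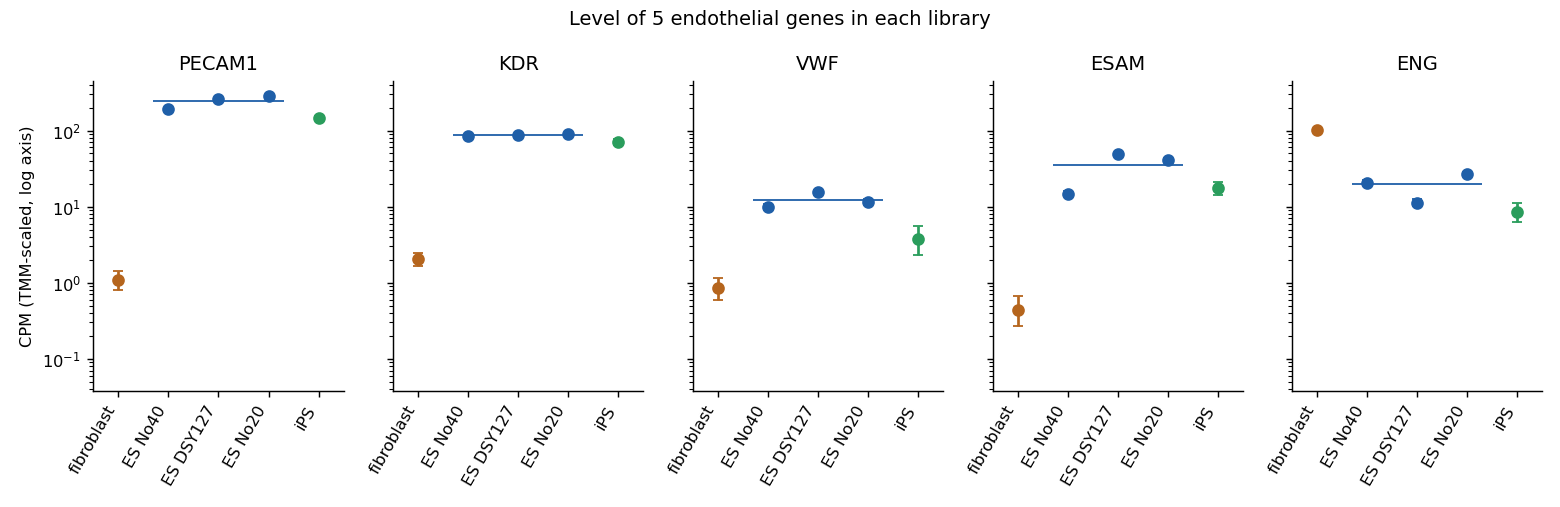
CPM of each gene (log axis) in the fibroblast library (brown), the 3 ES lines (blue, with a line at their mean) and the iPS library (green). Bars are 95% exact Poisson intervals. PECAM1, KDR, VWF and ESAM were lowest in the fibroblast library, and ENG was highest there at 100.8 CPM.

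Both adhesion molecules were lower in fibroblasts than in every pluripotent library. PECAM1 stood at 193, 259 and 288 CPM in No40, DSY127 and No20, at 145 CPM (136 to 155) in the iPS library and at 1.07 CPM (0.798 to 1.41) in the fibroblast library. All 4 pluripotent libraries were above 100 CPM and the fibroblast library was near 1 CPM. Its count was 51 in the fibroblast library and 860 in the iPS library. PECAM1 fell by 7.84 ± 0.60 (SE) on the log2 scale in the fibroblast library against the ES lines, or 229-fold (adjusted p = 0.0015, edgeR quasi-likelihood test). ESAM stood at 14.8, 49.0 and 41.3 CPM in the same ES lines, at 17.4 CPM (14.2 to 21.1) in the iPS library and at 0.441 CPM (0.273 to 0.674) in the fibroblast library. No40 and the iPS library were close to each other and below the other ES lines. ESAM fell by 6.30 ± 1.02 on the log2 scale in the fibroblast library against the ES lines (78.8-fold, adjusted p = 0.00967). The fibroblast count of ESAM was 21. When every library was thinned to the total of the iPS library no count remained there, and the fitted log2 change became -10.62, which is no bound.

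The receptors KDR and ENG went in opposite directions. KDR stood at 85.2, 86.3 and 90.8 CPM in No40, DSY127 and No20, at 71.0 CPM (64.4 to 78.1) in the iPS library and at 2.04 CPM (1.65 to 2.49) in the fibroblast library. The pluripotent libraries lay within a narrow band and the fibroblast library far below it. KDR fell by 5.42 ± 0.48 on the log2 scale in the fibroblast library against the ES lines (42.8-fold, adjusted p = 0.00199). ENG stood at 20.8, 11.3 and 26.9 CPM in the ES lines, at 8.45 CPM (6.27 to 11.1) in the iPS library and at 100.8 CPM (98.0 to 104) in the fibroblast library. ENG was thus present in every library and highest in the fibroblasts, with 4800 counts there and 50 in the iPS library. It rose by 2.36 ± 0.49 on the log2 scale in the fibroblast library (5.13-fold, adjusted p = 0.0211). Without No40 the ENG change was 2.46 and did not pass (adjusted p = 0.0773, the highest of 13 alternatives, whose lowest was 4.86e-04).

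VWF, the secreted protein, was also lowest in the fibroblast library. It stood at 9.94, 15.4 and 11.5 CPM in No40, DSY127 and No20, at 3.72 CPM (2.33 to 5.63) in the iPS library and at 0.84 CPM (0.600 to 1.14) in the fibroblast library. The iPS library, with 22 counts, lay between the fibroblast library and the lowest ES line. VWF fell by 3.86 ± 0.74 on the log2 scale in the fibroblast library against the ES lines (14.6-fold, adjusted p = 0.0161).

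The fibroblast library lay below the range of the ES lines for 4 genes, as for 39% of all genes tested, and above it for ENG, as for 35.4%. All 5 genes passed in the comparison of the fibroblast library with the ES lines, where 18.1% of the 17462 genes tested passed. Since the genes were chosen for passing there, among a shorter list of endothelial markers than the lists below, the count is fixed by the choice and nothing is read from it. Of all genes tested, 2.98% had a lower log2 change than PECAM1, 6.06% than ESAM, 8.77% than KDR and 12.8% than VWF, and 6.95% had a higher one than ENG. The median log2 change of all genes was -0.15. When libraries were scaled by total counts alone that median moved by -0.38, with upper-quartile factors by -0.26, and the split of calls went from 1537 higher and 1620 lower to 1066 and 2016 with total counts alone and to 1674 and 1009 with limma voom. The direction of each of the 5 genes was the same under all 13 alternatives.

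**Figure D2:**
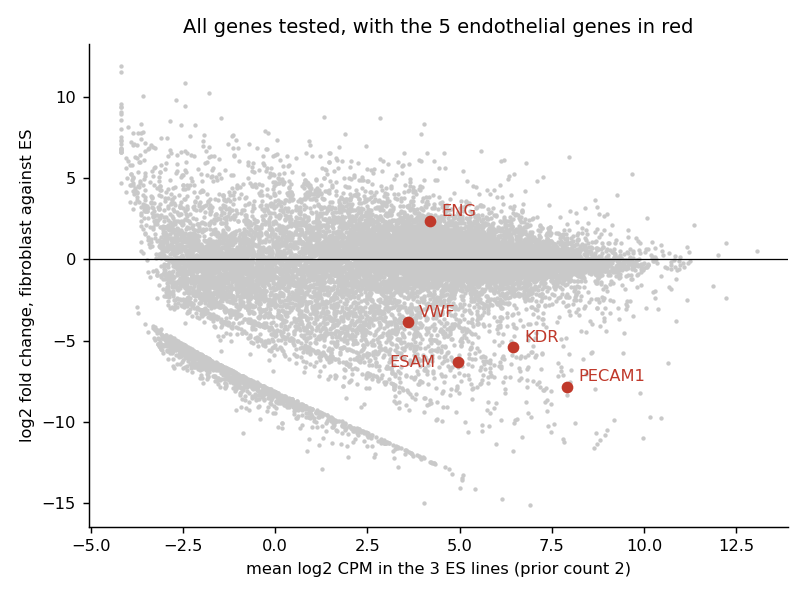
Log2 fold change of the fibroblast library against the ES lines (vertical axis) by mean log2 CPM in the ES lines (horizontal axis) for the 17462 genes tested, in grey, with the 5 endothelial genes in red. PECAM1 lies at -7.84 and ENG at 2.36.

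The comparison of the iPS library with the ES lines asked whether reprogrammed cells carry these transcripts at the level of established lines. None of the 5 genes passed with the edgeR quasi-likelihood test, in which 0.109% of all genes passed, nor with DESeq2 or limma voom. VWF alone had an unadjusted p under 0.05, as had 8.69% of all genes. The point estimates of all 5 were below the ES mean. PECAM1 had a log2 change of -0.76 with a 95% interval from -1.68 to 0.16 (adjusted p = 0.653) and KDR one of -0.30, from -1.12 to 0.52 (adjusted p = 0.845). For VWF the log2 change was -1.72, from -3.29 to -0.15 (adjusted p = 0.529). ESAM had -1.01, from -2.75 to 0.74, and ENG -1.22, from -2.66 to 0.23 (adjusted p = 0.753 and 0.644). These intervals include no change for each gene but VWF, and for VWF, ESAM and ENG they also include falls of over 4-fold, so equal levels were not shown. In CPM the iPS library lay below the lowest ES line for PECAM1, KDR, VWF and ENG and inside the ES range for ESAM, while 31.5% of all genes tested lay below that range. The ratio of the iPS level to that of the lowest ES line was 0.754 for PECAM1, 0.833 for KDR, 0.374 for VWF and 0.749 for ENG. For ENG the counting interval of the iPS library ended just below the level in DSY127, which carries counting error too.

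Against the fibroblast library, the iPS library was higher in PECAM1, KDR and ESAM and lower in ENG. The log2 changes were 7.08 ± 0.60 for PECAM1 (135-fold, adjusted p = 0.00441), 5.12 ± 0.50 for KDR (34.8-fold, adjusted p = 0.00615) and 5.29 ± 1.03 for ESAM (39.2-fold, adjusted p = 0.0249). ENG fell by 3.58 ± 0.75 (11.9-fold, adjusted p = 0.0295). VWF had a log2 change of 2.14 with a 95% interval from 0.32 to 3.96 and did not pass (adjusted p = 0.112), although it passed with DESeq2 (adjusted p = 0.0403, the lowest of 11 alternatives, whose highest was 0.297). In this comparison 12.7% of all genes passed, 7.69% higher and 4.99% lower. It shares the lone fibroblast library with the comparison in which the genes were chosen, so its folds and p-values are not independent evidence either. It also sets 1 library against 1, and the only replicates behind its spread are the ES lines. With limma voom ESAM and ENG did not pass (adjusted p = 0.151 and 0.107), nor did ENG without No40 (adjusted p = 0.0734), and over the 11 alternatives the adjusted p ran from 3.25e-07 to 0.151 for ESAM and from 3.02e-05 to 0.107 for ENG.

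**Figure D3:**
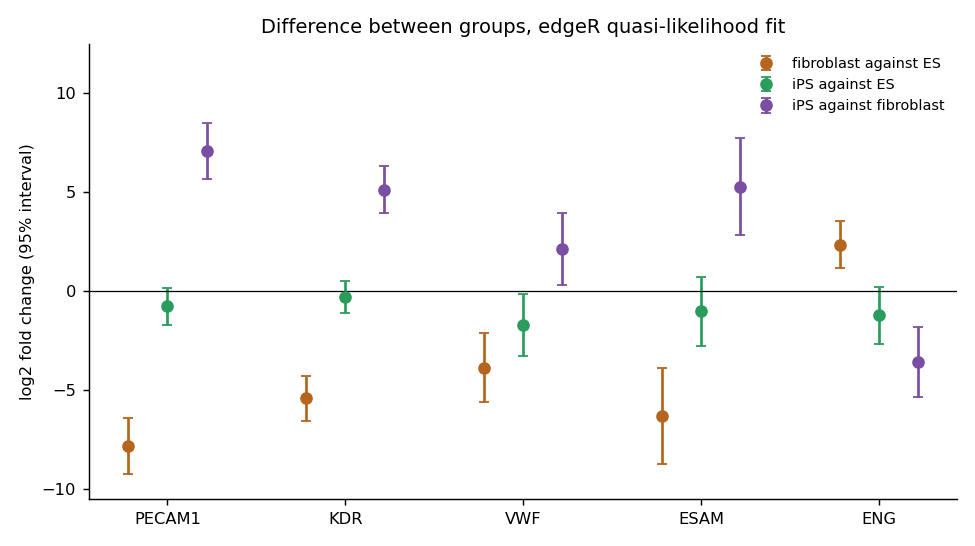
Log2 fold change of each gene with its 95% interval in 3 comparisons: fibroblast against ES (brown), iPS against ES (green) and iPS against fibroblast (purple). The brown intervals of PECAM1, KDR, VWF and ESAM lie wholly below 0 and that of ENG above it, while the green intervals cross 0 for each gene but VWF (-3.29 to -0.15).

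Divided by the length of the gene model, the levels of different genes can be set side by side. In the ES lines PECAM1 stood highest at 100.4 ± 19.9 CPM per kilobase, followed by ESAM at 18.6 ± 9.55, KDR at 14.4 ± 0.49, ENG at 6.27 ± 2.51 and VWF at 1.39 ± 0.32 CPM per kilobase. ESAM and KDR did not differ beyond the spread of ESAM, whose level per kilobase was below that of KDR in No40 (7.87 against 14.1) and above it in DSY127 and No20. The iPS library had PECAM1 at 59.2, KDR at 11.7, ESAM at 9.26, ENG at 2.70 and VWF at 0.421 CPM per kilobase, and the counting intervals of KDR (10.6 to 12.9) and ESAM (7.56 to 11.2) overlapped. In the fibroblast library ENG came first at 32.2 CPM per kilobase and PECAM1, KDR, ESAM and VWF followed at 0.437, 0.336, 0.235 and 0.0951. The counting intervals of PECAM1 (0.325 to 0.574), KDR (0.273 to 0.410) and ESAM (0.145 to 0.359) overlapped there. Among the 17462 genes tested, PECAM1 exceeded 94.2% to 95.9% in level per kilobase in the ES lines, 90.7% in the iPS library and 24.1% in the fibroblast library. ENG exceeded 81.3% of genes in the fibroblast library and 41.0% to 56.8% in the ES lines, whereas VWF exceeded 25.5% to 30.4% in the ES lines and was among low transcripts in every library.

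The ES lines differed little in some of these genes and much in others. KDR varied least, with a coefficient of variation of 3.38% and a ratio of 1.07 between the highest and the lowest line, and 98.6% of the genes tested had a larger SD of log2 CPM among the ES lines. PECAM1 and VWF followed with ratios of 1.49 and 1.55 and SDs of log2 CPM of 0.30 and 0.32, under the median of 0.44 over all genes tested. ENG (ratio 2.38, SD 0.64) and ESAM (ratio 3.31, SD 0.93) varied more than that median. The highest line was No20 for PECAM1, KDR and ENG and DSY127 for ESAM and VWF, and for KDR the counting intervals of No20 (88.0 to 93.7 CPM) and DSY127 (83.3 to 89.4 CPM) overlapped.

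A wider set of endothelial genes was examined to see what surrounds the 5. Of 38 surface and junction genes, 33 matched an identifier and 29 were tested. Without PECAM1, KDR, ESAM and ENG there were 25, of which 7 fell and 3 rose in the fibroblast library, with a median log2 change of -1.497 against -0.15 over all genes and 8.8% of all genes higher and 9.28% lower. RAMP2, which partners the receptor for adrenomedullin, fell from 15.2 ± 8.25 to 0.21 CPM (log2 change -6.16 ± 1.04, adjusted p = 0.0107). The adhesion molecule VCAM1 fell from 15.7 ± 3.48 to 0.882 CPM (-4.15 ± 0.71, adjusted p = 0.0111). PDPN, a mucin-like protein of lymphatic endothelium that is also found on pluripotent cells, fell from 381 ± 208 to 17.4 CPM (-4.46 ± 0.78, adjusted p = 0.0121). FLT4, PLVAP, MCAM and ROBO4 were the other genes that fell, of which PLVAP, MCAM and ROBO4 did not pass without No40 or with limma voom, and ROBO4 had no count in the fibroblast library. JAM2, a junctional adhesion molecule, rose from 8.88 ± 4.72 to 123.9 CPM (3.80 ± 0.55, adjusted p = 0.0070). EFNB2 and THBD were the other genes that rose, neither of them with total counts alone or upper-quartile factors, and without No40 JAM2 alone of the list's risers, ENG among them, still passed. With VWF left out, 5 secreted and intracellular endothelial genes were tested. MMRN2 and NOS3 fell and 3 did not pass, and NOS3 was not called in 5 of 13 alternatives. MMRN2, an extracellular matrix protein of vessels, fell from 37.9 ± 22.6 to 0.483 CPM (-6.28 ± 1.03, adjusted p = 0.00983).

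Several classic endothelial markers, named here whatever their result, did not pass in any comparison with the edgeR quasi-likelihood test. Such a result does not show equal levels. With DESeq2 the genes called lower in the fibroblast library went from 10 to 14 in the surface and junction list, with PECAM1, KDR and ESAM counted in both. Calls over all genes went from 3157 to 4773. CDH5 (VE-cadherin), the adherens junction protein of endothelium, stood at 1.38, 4.23 and 18.3 CPM in No40, DSY127 and No20, at 6.76 CPM in the iPS library and at 0.126 CPM in the fibroblast library (log2 change of the fibroblast library -5.94 ± 1.91, adjusted p = 0.0768). Per kilobase, CDH5 averaged 2.96 ± 3.36 CPM in the ES lines against 100.4 for PECAM1, while other genes of the same lists ranged up to PDPN at 231.8 CPM per kilobase, with MCAM at 32.7 and FLT1 at 30.4. The angiopoietin receptor genes TIE1 and TEK stood at 0.874 to 6.75 and at 2.64 to 5.03 CPM in the ES lines, and the tight junction gene CLDN5 at 1.502 to 1.75 CPM. CD34, a sialomucin of endothelium and blood progenitors, stood at 1.75 to 8.07 CPM in the ES lines, 9.80 CPM in the iPS library and 2.63 CPM in the fibroblast library. None of CDH5, TIE1, TEK, CLDN5 and CD34 passed in any of the 3 comparisons with the edgeR quasi-likelihood test, and EMCN has no match in the name table and is not analysed here. Against the ES lines the iPS library had 0 of the 35 endothelial genes called by that test, which called 0.109% of all genes. With unadjusted p-values under 0.05, which 8.69% of all genes had, S1PR1 was higher and EPHB4 and VWF were lower. DESeq2 called 1 gene of these lists and 416 of all 17462 genes, and limma voom called 0 of these lists and 5 of all genes. The lipid receptor gene S1PR1 stood at 53.2 CPM in the iPS library against 3.36 ± 2.43 CPM in the ES lines (log2 change 3.98 ± 0.72, adjusted p = 0.116, from 7.99e-05 to 0.393 over 12 alternatives).

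**Figure D4:**
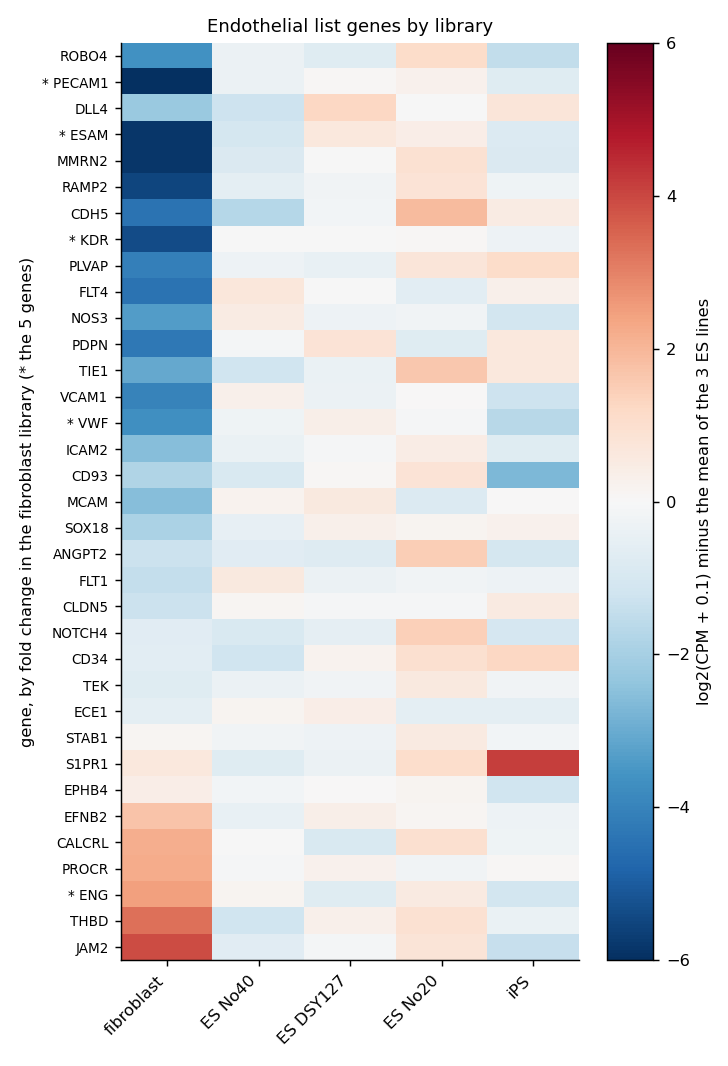
Log2(CPM + 0.1) of the 35 tested endothelial genes in each library, minus the mean of the 3 ES lines, with genes ordered by their fold change in the fibroblast library and the 5 genes marked by an asterisk. Blue is below and red above the ES mean. Most rows are blue in the fibroblast column, the 6 rows at the bottom, from EFNB2 to JAM2, are red there, and No20 is the reddest of the ES columns for CDH5, TIE1 and ANGPT2.

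The ES line with the highest level was No20 for 21 of these 35 genes, DSY127 for 9 and No40 for 5, while No20 was highest in 33.1% of all genes tested. Without the 5 genes the split was 18, 7 and 5. Among the 32 endothelial genes at a mean of 1 CPM or more in the ES lines, the 10 with the widest ratio between lines were all highest in No20. They ran from CDH5 (ratio 13.2), TIE1 (7.72) and NOTCH4 (5.42) to MMRN2 (3.43), whereas PECAM1 ranked 28 and KDR last of the 32. Of the 10, THBD (1.12 CPM) and ROBO4 (1.35 CPM) had ES means near the cut of 1 CPM. How often equally variable genes outside these lists were highest in No20 was not counted. The run of 10 is thus not shown to be particular to endothelial genes. No20 was also highest for 4 of 8 tested mesoderm genes. Among these, EOMES stood at 67.1 CPM in No20 against 5.95 and 11.7 CPM in No40 and DSY127, whereas TBXT was lowest in No20, at 9.31 CPM against 10.97 and 115 CPM. The part of mesoderm genes in the No20 values was not tested.

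Of 24 listed transcription factors of the vascular and blood lineages, 13 matched and were tested, and 3 rose and 1 fell in the fibroblast library, where 8.8% of all genes tested rose and 9.28% fell. FLI1, an ETS factor of endothelium and blood, rose from 2.07 ± 1.34 to 32.2 CPM (3.96 ± 0.70, adjusted p = 0.0126). RUNX1 and MEF2C rose too (3.43 and 2.90), and ETS2 fell from 188 ± 99.2 to 27.2 CPM (-2.79 ± 0.67, adjusted p = 0.0327). FLI1 and MEF2C did not pass without No40, nor RUNX1 and MEF2C when the iPS library was grouped with the ES lines. The iPS library held RUNX1 at 25.2 CPM. ERG, another endothelial ETS factor, stood at 1.14, 0.890 and 2.84 CPM in No40, DSY127 and No20, at 0.676 CPM in the iPS library and at 1.55 CPM in the fibroblast library (adjusted p = 0.973 for the fibroblast library). ETV2 and TAL1 have no match in the name table and are not analysed here.

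KDR was next compared with the other VEGF receptors and their ligands. FLT1 (VEGFR1), which binds VEGFA with high affinity and signals weakly, stood at 363, 189 and 208 CPM in the ES lines, at 193 CPM in the iPS library and at 89.7 CPM in the fibroblast library. Its fibroblast change of -1.497 ± 0.50 did not pass (adjusted p = 0.0851). FLT4 (VEGFR3), the receptor for VEGFC and VEGFD, stood at 24.0, 15.0 and 9.65 CPM in the ES lines, 18.6 CPM in the iPS library and 0.609 CPM in the fibroblast library (-4.73 ± 0.86, adjusted p = 0.0138). Per kilobase, KDR made up 22.1% to 35.4% of the summed level of the 3 receptors in the ES lines and 29.7% in the iPS library. In the fibroblast library KDR made up 2.98% and FLT1 95.7%. The co-receptor gene NRP1 went the other way, from 7.36 ± 0.57 CPM in the ES lines (8.11 CPM in iPS cells) to 317 CPM in the fibroblast library (5.43 ± 0.32, adjusted p = 0.00119). VEGFA rose from 29.6 ± 8.39 to 176 CPM in the fibroblast library (2.58 ± 0.39, adjusted p = 0.00754), with iPS cells at 87.2 CPM, and did not pass when the iPS library was grouped with the ES lines (adjusted p = 0.0665, the highest of 13 alternatives, whose lowest was 2.24e-06). VEGFB rose too (1.40 ± 0.34, adjusted p = 0.0341), though not with total counts alone or upper-quartile factors, nor without No40 or DSY127. Of the 11 tested genes of the list other than KDR, 3 rose, 1 fell and 7 did not pass in the fibroblast library (8.8% and 9.28% of all genes rose and fell). Against the ES lines the iPS library had 0 of the 12 called by the edgeR quasi-likelihood test (0.109% of all genes), nor by DESeq2 or limma voom. VEGFA and VEGFD were higher at an unadjusted p under 0.05, which 8.69% of all genes had in either direction.

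**Figure D5:**
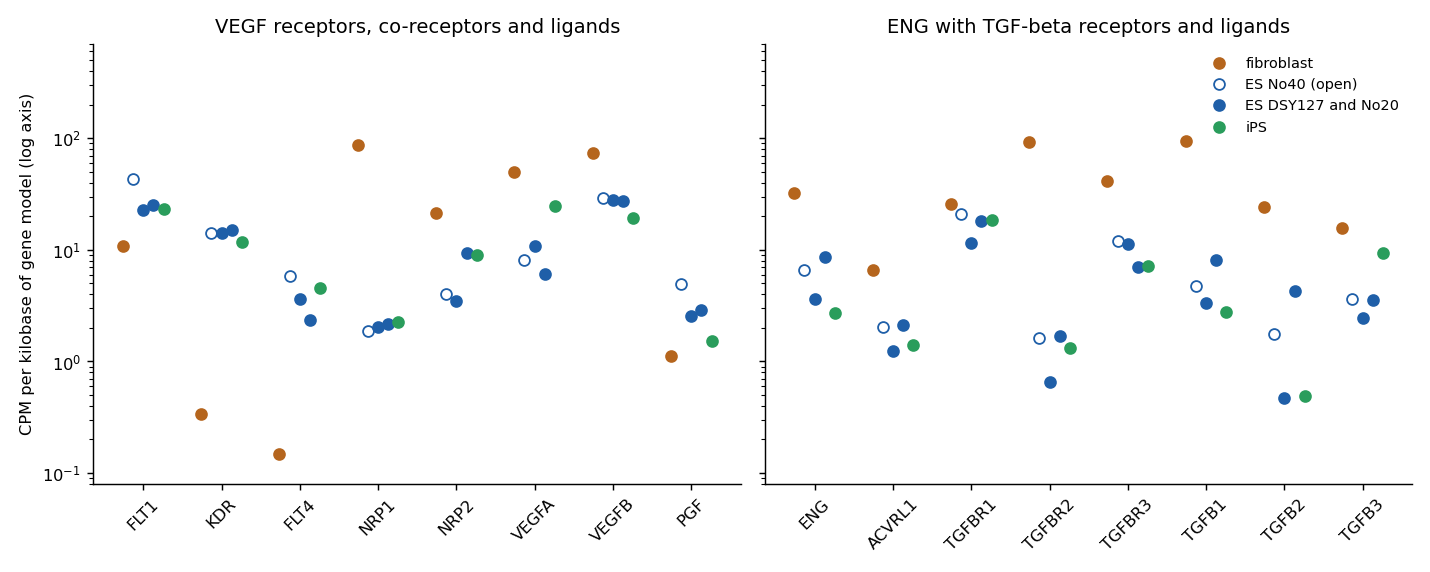
CPM per kilobase of gene model (log axis) in each library for VEGF receptors, co-receptors and ligands (left) and for ENG with TGF-beta receptors and ligands (right). Brown is the fibroblast library, open blue No40, filled blue DSY127 and No20, and green the iPS library. KDR and FLT4 are lowest in the fibroblast library, and NRP1, TGFBR2 and TGFB1 are highest there.

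Other genes of the pathway of ENG were examined beside it. The list holds mainly receptors, ligands and signal carriers of the TGF-beta and BMP family, with the protease gene MMP14 among its members. Of its 19 tested genes other than ENG, 6 rose and 1 fell in the fibroblast library (all genes, 8.8% and 9.28%). Their median log2 change was 1.45 against -0.15 over all genes. TGFBR2, the type II receptor for TGF-beta, rose from 3.40 ± 1.501 to 237.7 CPM (6.12 ± 0.54, adjusted p = 0.00199). TGFBR3, or betaglycan, which is related to ENG, rose from 29.8 ± 8.09 to 121 CPM (2.03 ± 0.40, adjusted p = 0.0184). The ligand gene TGFB1 rose from 11.9 ± 5.48 to 209 CPM (4.13 ± 0.49, adjusted p = 0.00390). TGFB2 and TGFB3 rose too (3.47 and 2.28, TGFB2 not without No40, with total counts alone or with upper-quartile factors), as did MMP14, a protease that sheds ENG from the cell surface (4.47 ± 0.36, adjusted p = 0.00158). ACVR2B was the gene that fell (-3.63 ± 0.97, adjusted p = 0.0451), though not without No40, with limma voom or with all libraries thinned. ACVRL1 (ALK1), the type I receptor that works with ENG in endothelium, stood at 4.63, 2.86 and 4.89 CPM in the ES lines, 3.21 CPM in the iPS library and 15.0 CPM in the fibroblast library and did not pass (1.86 ± 0.57, adjusted p = 0.0690). The count of higher genes, with ENG included, went from 7 to 11 without No20. GDF2 and BMP10, the ligands with the highest affinity for ENG, had 0 to 6 counts in every library and were not tested.

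Partners of VWF split between both directions. Of 9 tested genes other than VWF, 3 rose and 2 fell in the fibroblast library, beside 8.8% and 9.28% of all genes. THBS1, a matrix protein of platelet granules that fibroblasts also make, rose from 155 ± 28.4 to 5282 CPM (5.09 ± 0.32, adjusted p = 0.00119). MYRIP, which tethers Weibel-Palade bodies to the actin cytoskeleton, fell from 13.8 ± 4.34 to 0.462 CPM (-4.89 ± 0.79, adjusted p = 0.00941) and stood at 13.4 CPM in the iPS library. F8, coagulation factor VIII, which circulates bound to VWF, stood at 14.8, 9.18 and 13.1 CPM in the ES lines, 10.99 CPM in the iPS library and 3.59 CPM in the fibroblast library and did not pass (-1.78 ± 0.62, adjusted p = 0.0931). SELP, the other classic protein of Weibel-Palade bodies, had no count in the ES lines, 2 in the iPS library and 8 in the fibroblast library.

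Among 14 tested partners of PECAM1 and ESAM, 4 rose and 3 fell in the fibroblast library, again beside 8.8% and 9.28% of all genes. The phosphatase gene PTPN6 (SHP-1), whose product binds the phosphorylated tail of PECAM1, stood at 20.1, 16.8 and 23.1 CPM in the ES lines, was at 15.6 CPM in iPS cells and had no count in the fibroblast library, where it was at least 317-fold lower if 3 counts are put in place of 0. The related PTPN11 (SHP-2) was at 81.6 ± 26.6 CPM in the ES lines, reached 166 CPM in fibroblasts and did not pass (1.02 ± 0.44, adjusted p = 0.151). F11R (JAM-A) and CXADR, junctional adhesion molecules of epithelia in the same family as ESAM, fell with it, from 218 ± 37.2 to 2.23 CPM and from 54.0 ± 32.1 to 0.546 CPM (-6.61 ± 0.54 and -6.62 ± 1.004, adjusted p = 0.00158 and 0.00788). ITGAV and ITGB3, which encode the integrin that has been reported to bind PECAM1, rose (2.02 ± 0.31 and 3.84 ± 0.37, adjusted p = 0.00832 and 0.00231). JAM2 and TJP1 rose as well, TJP1 with an adjusted p of 0.0490, which was lost in 5 of 13 alternatives.

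Markers of other cells that carry these proteins were counted beside them. Leukocytes and platelets carry PECAM1, and of 11 measured blood and platelet markers PTPRC (CD45), the common leukocyte antigen, had 0 to 8 counts per library, GP9 had 0 or 1 and PPBP had none in the pluripotent libraries. The 11 markers summed to 10.95 to 18.8 CPM in the ES lines, 32.3 CPM in the iPS library and 50.5 CPM in the fibroblast library, with 2 to 5 of them at 0, and RUNX1 held most of the sum in the iPS and fibroblast libraries. Markers other than PTPRC, GP9 and PPBP held most of the sum in the ES lines, so the list as a whole was not absent there. GP9 and PPBP were named after their values were seen. For the counts of rising and falling genes that follow, 8.8% of all genes tested rose and 9.28% fell in the fibroblast library. Of 7 tested blood and platelet markers 1 rose and 6 did not pass. Of 6 mural cell markers ACTA2, TAGLN and CNN1 rose in the fibroblast library and 3 did not pass. The 6 summed to 7297 CPM there against 418 to 1149 CPM in the ES lines, with 216 CPM in iPS cells. Of 8 tested mesoderm genes, GATA4, TBXT and TBX20 fell and PDGFRA rose. TBXT, a marker of the primitive streak, did not pass without No40 or with limma voom. Of 8 trophoblast and amnion markers CYP19A1 rose, at 0.63 CPM in the fibroblast library, and 7 did not pass, and the sum over the list ran from 22.1 CPM in No20 to 328 CPM in DSY127 and was 362 CPM in the iPS library. All 8 core pluripotency genes fell and 10 of 11 fibroblast markers rose. When iPS cells were set against the ES lines, 2 of these 11 fibroblast markers were called higher and 0 lower. The edgeR quasi-likelihood test called 0.109% of all genes there. Of the 11 log2 changes, 4 were positive and 7 negative. The 11 markers summed to 13075 CPM for iPS cells, while single ES lines held from 4133 to 5757 CPM. The part of these lists in the values of the 5 genes was not tested.

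The genes most like each of the 5 were found by the root mean square difference of mean-centred log2 CPM over the 5 libraries, among 11464 tested genes with a symbol. For PECAM1 these were CDH3 (0.18), which encodes P-cadherin, FREM2 (0.21) and CAMKV (0.24). CDH3 stood at 314, 532 and 405 CPM in the ES lines, 232 CPM in the iPS library and 1.68 CPM in the fibroblast library. KDR was closest to the kinase gene PTK2B (0.10), CFAP74 (0.16) and KLK8 (0.16), and PTK2B stood at 17.2, 19.9 and 17.6 CPM in the ES lines, 13.2 CPM in the iPS library and 0.357 CPM in the fibroblast library. The nearest genes of VWF were RGN (0.24), PMEL (0.25) and FRMPD1 (0.26), and those of ESAM were AMDHD1 (0.30), GUCY1A1 (0.36) and PKP1 (0.38). ENG was closest to TRIM56 (0.10), ADAMTS10 (0.11) and LOXL4 (0.11), and TRIM56 reached 29.0 CPM in fibroblasts, 6.95, 3.78 and 9.40 CPM in the ES lines, with iPS cells at 2.70 CPM. Within a difference of 0.5 there were 247 named genes for ENG, 148 for KDR, 50 for VWF, 43 for PECAM1 and 22 for ESAM. None of the 15 nearest genes is in the endothelial lists. With 5 libraries such likeness rests mainly on the gap between the fibroblast library and the others.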

How the data were processed

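The authors deposited raw counts of reads for each gene, as a joint table and as 5 files of single libraries with the same values. The submitters' processing notes name STAR 2.5.3a, featureCounts 1.5.2 and Trim Galore 0.4.0 without saying what each was used for. No source used here gives the build, nor how strand, multi-mapping reads or overlapping models were handled, so genes with close copies or antisense neighbours could share reads. Of 30811 identifiers 12660 matched a symbol, and 154 of 213 distinct genes in 14 lists matched.

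The test was edgeR 4.0.16 under R 4.3.3 (filterByExpr on the 3 groups, TMM, estimateDisp, glmQLFit, glmQLFTest) in 1 fit over the 5 libraries with the groups as levels. Adjustment was by Benjamini-Hochberg across the 17462 genes tested with calls under 0.05. The p-values rest on the spread between 3 ES lines, each sequenced once, after the spread of each gene was drawn toward that of other genes. Alternatives used DESeq2 1.42.0 and limma 3.58.1 (voom), other scaling and filters, thinning and leaving out libraries. Log2 CPM used a prior count of 2. The 5 genes and the lists were chosen with earlier results of these data known. Named genes are the 5, up to 4 called genes per list, direction and comparison, a fixed set of endothelial genes and pathway receptors, and the 3 nearest patterns; EOMES, NOTCH4, ANGPT2, F8, SELP, GDF2, BMP10, PTPN11, S1PR1, EPHB4, VEGFD, the untested blood markers and further called list genes (such as VCAM1, PDPN, PLVAP, MCAM and ROBO4) were added after their values were seen. The fit was also run on simulated counts, drawn for every library from ES means with the same dispersion. That run cannot check whether the lone libraries vary like an ES line. Sequences were not used here.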

Additional observations from a re-analysis of the deposited data

How the results depend on the processing

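The direction of the 5 genes was the same in all 180 values under the alternatives, and 175 kept their side of the threshold. All of these values come from the 5 libraries in which the genes were chosen, so they speak of the processing only. Of the 180, 60 compare the iPS library with the ES lines, where none of the 5 genes passed. Against the ES lines, the fibroblast change of ENG ran from 2.16 to 2.77 when 1 ES line was left out and did not pass without No40. Between the iPS and fibroblast libraries, that of ENG ran from -3.67 to -3.66 and did not pass without No40. No ES line enters that log2 change, so leaving 1 out could hardly move it, and the narrow range follows from the design. With limma voom ENG (-3.56) and ESAM (5.28) did not pass in that comparison, while VWF passed with DESeq2 (2.13). Genes called in the fibroblast library were 3157, 4773 with DESeq2 and 1742 (without No40) to 4550 (without No20) with 1 ES line left out. Genes called in the iPS library against the ES lines were 19, 204 without the low-count filter, 416 with DESeq2, 5 with limma voom, 102 with all libraries thinned, and 0 (without No40) to 268 (without No20) with 1 line left out. At 0 calls in the edgeR quasi-likelihood test, 1423 genes had an unadjusted p under 0.05. Genes called between the iPS and fibroblast libraries were 2213, 4284 with DESeq2, 169 with limma voom and 1076 to 3905 with 1 line left out. There the split of 1342 higher and 871 lower became 1636 and 615 with total counts alone and 1605 and 660 with upper-quartile factors. The cause of these differences was not tested. No paired analysis was possible because fibroblasts and iPS cells had 1 library each and the labels name no parent culture. Depth limits VWF, with 22 counts in the iPS library and 40 in the fibroblast library, and ESAM, with 21 in the fibroblast library and 0 after thinning.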
